A study of Mus musculus with 3 samples.

Results

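The nuclei described here are hepatocyte nuclei of mouse liver that fall in the middle of the axis from the central vein to the portal tract, as read from their own RNA. A nucleus was taken as a hepatocyte nucleus if it held at least as many UMIs (unique molecular identifiers, one per captured RNA molecule) as the shallowest barcode of the SD library, at most 5% mitochondrial UMIs and at most 2 UMIs summed over 9 genes of other liver cell types. Each was scored by the share of its UMIs from the periportal genes Cyp2f2, Hal, Sds and Gls2 minus the share from the pericentral genes Cyp2e1, Oat and Cyp1a2. Nuclei between the 40th and 60th percentile of the score within their own library were the members, selected on the measured UMIs of these score genes, 4166 of 19653 hepatocyte nuclei and of 21665 barcodes in all. The SD library gave 1481 of them, the MASLD library 1329 and the Aza-TdC library 1356. They were set beside the nuclei up to the 20th percentile of the same library, the pericentral end, and those from the 80th percentile on, the periportal end, with 3932 nuclei at each end. The score chose the members, so its 7 genes are given as a description only.

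The study used single-nucleus RNA sequencing of frozen liver from male C57BL/6N mice that entered it at 8 weeks of age, with 1 library per group. The SD mice stayed on a standard diet. The MASLD mice received for 18 weeks a diet named for metabolic dysfunction-associated steatotic liver disease, together with a sucrose solution listed with glucose and fructose. The Aza-TdC mice had the same diet and drink and also 5-Aza-4′-thio-2′-deoxycytidine, called Aza-TdC, a nucleoside analogue given by oral gavage at 2 mg/kg daily from week 14 to week 18. No source used here gives the number of animals behind a library. The libraries held 45162618, 43569644 and 51789068 UMIs in the order SD, MASLD, Aza-TdC, and any pair of them shared 9 to 15 barcodes.

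Hepatocytes divide their work along the liver lobule. Cells around the central vein take up ammonia as glutamine, oxidise drugs with cytochrome P450 enzymes and make bile acids under Wnt and beta-catenin signals, while cells near the portal tract make urea and glucose and break down amino acids. The layers between are known in the mouse for hepcidin, the hormone that blocks iron export through ferroportin, and for a state driven by IGFBP2, mTOR and cyclin D1 in which hepatocytes renew themselves. Hepcidin is encoded in the mouse by Hamp (ENSMUSG00000050440, chr7:30942368-30944032, minus strand, GRCm38) and has a close copy, Hamp2 (ENSMUSG00000056978, chr7:30922372-30924681, minus strand). BMP signals through SMAD proteins and inflammatory signals through STAT3 are the best known inputs to Hamp.

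Hamp and Hamp2 are the given markers of this layer that the score did not use, and their upstream sequences are shown because the copies differ at a known element. The bases before the RefSeq start of each gene (GRCm38.p6) are printed 5′ to 3′ on the strand of the gene, chr7:30944033-30944279 for Hamp and chr7:30924182-30924431 for Hamp2, both on the minus strand. In GENCODE neither window overlaps an exon of its gene, and that of Hamp2 lies in an intron of a longer Hamp2 transcript. Capitals mark the motif GGCGCC, the core of the BMP-responsive element, and the motif TTCNNNGAA, the STAT core. Each motif reads the same on both strands, and the motifs do not overlap here.
Hamp: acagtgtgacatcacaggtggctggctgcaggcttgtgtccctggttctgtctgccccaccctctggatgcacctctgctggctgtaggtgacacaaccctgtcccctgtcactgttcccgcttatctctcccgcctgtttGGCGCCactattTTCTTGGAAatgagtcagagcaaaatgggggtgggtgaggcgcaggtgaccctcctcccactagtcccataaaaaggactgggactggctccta
Hamp2: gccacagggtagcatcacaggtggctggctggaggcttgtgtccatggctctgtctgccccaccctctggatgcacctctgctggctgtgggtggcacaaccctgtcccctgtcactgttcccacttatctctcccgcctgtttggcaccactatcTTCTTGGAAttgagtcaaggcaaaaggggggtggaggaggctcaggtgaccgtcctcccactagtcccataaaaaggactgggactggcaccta
The window of Hamp held GGCGCC 1 time, with its first base 109 bases before the start, and the window of Hamp2 held it 0 times. TTCNNNGAA occurred 1 time in each, 97 bases before the start in Hamp and 94 in Hamp2. Among 27025 promoters, 9.54% held GGCGCC and 7.18% held TTCNNNGAA within the 250 bases before their start. The 250 bases before the start of Hamp and Hamp2 were identical at 89.7% of 253 aligned positions. The first GENCODE transcripts of the copies were identical at 92.4% of 420 aligned positions and at 80.6% over their last 150 bases, from which 3′ reads come. Some UMIs may have been assigned to the wrong copy, so the Hamp2 values are uncertain.

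The middle window lay at different score values in each library. A shift of nuclei along the lobule and a change in the score genes themselves cannot be told apart here. Scores formed a pericentral and a periportal group of nuclei with fewer nuclei between them, and the percentile window fell on different sides of that gap. In SD the window ran from 0 to 0.163 percent of UMIs, over the gap itself. In MASLD it ran from -0.144 to 0, from the flank of the pericentral group to the gap. In Aza-TdC it ran from 0.0418 to 0.150, on the flank of the periportal group. The median member carried 7 UMIs of the periportal and 3 of the pericentral score genes in SD, 1 and 6 in MASLD, and 9 and 1 in Aza-TdC. Cyp2f2, a periportal P450 gene, stood at 176 CPM (UMIs per 1000000 UMIs of the summed nuclei) in the middle window of SD, 101 in MASLD and 391 in Aza-TdC. Cyp2e1, the main pericentral P450 gene, stood at 505, 1048 and 188 CPM. When the score values of the SD window were applied to every library, 161 of the 1329 MASLD members (12.1%) and 1356 of 1356 Aza-TdC members lay in it, among 1617 and 1813 nuclei. At the score limits of the SD ends, the pericentral and periportal ends held 2786 and 149 nuclei in MASLD and 2037 and 565 in Aza-TdC. A score of exactly 0 was held by 231 SD and 161 MASLD members, and by 79 Aza-TdC nuclei outside the window. The edges were also soft, since 581 SD, 502 MASLD and 420 Aza-TdC members lay within 1 UMI of a limit, as did 395, 376 and 384 nuclei just outside. With Cyp2e1 left out of the score, the middle window kept 68.7% of the SD, 38.8% of the MASLD and 81% of the Aza-TdC members. With Cyp2f2 left out instead it kept 85.7%, 84.3% and 75.9%.

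**Figure D1:**
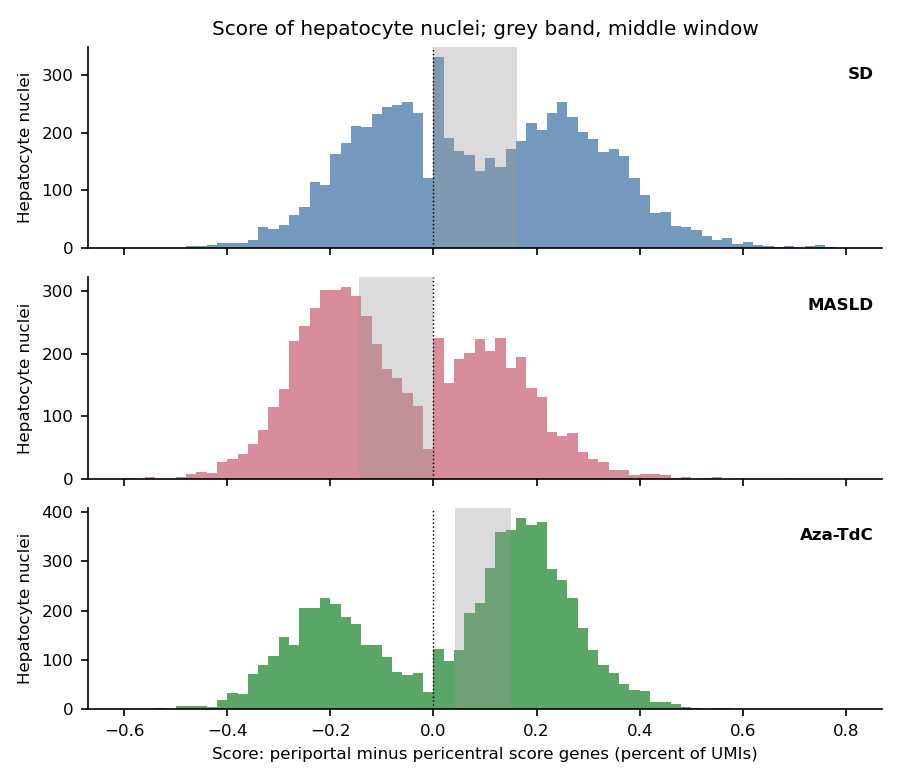
Number of hepatocyte nuclei by score in percent of UMIs, 1 panel per library, with the limits of the middle window marked. The window lies over the gap in SD (0 to 0.163), left of 0 in MASLD (-0.144 to 0) and right of 0 in Aza-TdC (0.0418 to 0.150).

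A score near 0 also arises in a nucleus with few UMIs of any score gene. Under 3 such UMIs were found in 67 SD members (4.52%), 194 MASLD members (14.6%) and 25 Aza-TdC members (1.84%), against 1 of 3932 nuclei at the pericentral end and 0 at the periportal end. Such nuclei were not particular to the middle window. Between the 20th and 40th percentile they numbered 88 for Aza-TdC (6.48%), more than in its middle, 33 for SD (2.63%) and 0 for MASLD. Between the 60th and 80th percentile MASLD held 61 (5.63%), and the other libraries held 0. A few of the members under 3 score UMIs carried many UMIs of other cell types. A list of 7 B cell markers had 50 UMIs in the 67 SD nuclei, 28 of them in 1 nucleus, and 44 UMIs in the other 1414 members, 27 of them in 1 nucleus. In Aza-TdC the list had 18 UMIs in the 25 nuclei, 17 of them in 1 nucleus, and the stellate, mesothelial, T and NK, and neutrophil lists had 0 UMIs there. In MASLD a list of 10 Kupffer and macrophage markers stood at 185 CPM in the 194 nuclei and 27.4 CPM in the other members, with a UMI in 19.6% and 16.0% of nuclei. A list of 8 mesothelial markers stood at 142 against 4.34 CPM there, with a UMI in 5.15% and 2.11% of nuclei. The hepatocyte markers of the nuclei under 3 score UMIs stood at 13370.3 CPM for SD, 11579 for MASLD and 15549.8 for Aza-TdC, against 15675, 13439.7 and 17971 CPM in the other members. Every one of the 10 hepatocyte markers was detected among the members of each library, and their summed level was 15626 CPM for SD, 13296 for MASLD and 17956 for Aza-TdC. Results below are also given after all hepatocyte nuclei under 3 score UMIs were left out and the windows and ends were drawn anew from the rest, called the redrawn windows. These held 1455, 1155 and 1335 middle nuclei and 95.5%, 79.2% and 95.1% of the members, so they change which nuclei are compared as well. Whether the nuclei left out are doublets or other cells was not tested.

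Hamp was highest around the middle of the axis in the SD library. Its levels in the 5 successive windows from the pericentral to the periportal end of SD were 1838, 2172, 2158, 1789 and 1739.7 CPM. The middle exceeded the pericentral end by 0.23 (0.20 to 0.26) and the periportal end by 0.31 (0.28 to 0.34) on the log2 scale, with 95% intervals that cover counting error only. The diet-fed libraries went against the label. In MASLD the levels were 713, 766, 827, 987 and 1431 CPM, highest at the periportal end, and the middle stood at -0.79 (-0.83 to -0.75) against that end. In Aza-TdC they were 1535, 1624, 1529.8, 1723 and 1834 CPM, and the middle stood at -0.26 (-0.29 to -0.23) against the periportal end. At least 1 UMI of Hamp was found in 98.99% of SD, 85.5% of MASLD and 96.5% of Aza-TdC members. Free RNA was not removed, and erythroid markers, which hepatocytes should lack, had a UMI in 20.9%, 82.02% and 31.5% of the same nuclei, so these shares do not show how many nuclei expressed Hamp. Hamp in MASLD still increased with each window at the score values of SD, 744, 873, 1049, 1397 and 1893 CPM, the last from 149 nuclei. The nuclei are therefore called the middle window, not midlobular.

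Hamp2 had far fewer UMIs. It stood at 15.5, 19.6 and 15.9 CPM at the pericentral end, in the middle window and at the periportal end of SD. The values were 5.81, 8.01 and 11.3 CPM in MASLD and 3.21, 6.55 and 7.99 CPM in Aza-TdC, from 184, 68 and 65 UMIs in the 3 middle windows. Its difference from the periportal end of SD was 0.30 (-0.03 to 0.64) in log2, an interval that includes 0.

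Igfbp2 (ENSMUSG00000039323, chr1:72824503-72852474, plus strand), which encodes an insulin-like growth factor binding protein, peaked in the middle of the SD library. Its levels from the pericentral to the periportal end of SD were 43.6, 58.98, 76.04, 58.2 and 52.1 CPM. The middle was 0.80 (0.62 to 0.98) above the pericentral and 0.55 (0.37 to 0.72) above the periportal end in log2, from 715 UMIs in 481 members. In MASLD the levels were higher and flatter, at 86.8, 99.98, 107, 101 and 108 CPM. In Aza-TdC they were 62.4, 78.98, 52.5, 54.4 and 52.5 CPM, with the highest value between the 20th and 40th percentile.

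Ccnd1 (ENSMUSG00000070348, chr7:144929931-144939925, minus strand), which encodes cyclin D1, a driver of the step from G1 into DNA synthesis, had the largest middle difference of these genes in SD. It was at 2.46, 5.75, 9.78, 5.31 and 2.71 CPM from the pericentral to the periportal end. The 92 UMIs in the middle were spread over 74 nuclei, of which the top 5 held 15.2%. The log2 difference was 1.99 (1.32 to 2.72) from the pericentral end and 1.85 (1.16 to 2.61) from the periportal end. In MASLD, Ccnd1 was at 4.36, 8.15, 12.1, 14.4 and 15.8 CPM, highest at the periportal end. In Aza-TdC it was at 6.33, 9.35, 10.7, 9.999 and 11.03 CPM, and the middle stood at -0.05 (-0.46 to 0.37) against the periportal end, an interval that includes 0. Of 21 measured genes listed for IGFBP2, mTOR and cyclin D1, 2 stood at least 0.5 in log2 above both ends in SD. The share of all genes was 0.518%, and the median difference of the list from the higher end was -0.03. In MASLD 1 of 22 did so and in Aza-TdC 0 of 21, beside 2.34% and 0.379% of all genes.

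Cyp8b1, the sterol 12-alpha-hydroxylase gene that sets the cholic acid share of bile, was also listed as a known midlobular gene and did not peak in the middle. It stood at 8.23, 6.17 and 7.22 CPM at the pericentral end, in the middle and at the periportal end of SD, at 64.8, 54.9 and 45.3 CPM in MASLD and at 62.2, 31.2 and 36.8 CPM in Aza-TdC. Its lowest value among these 3 positions was in the middle in SD and Aza-TdC and at the periportal end in MASLD. Mup3, a major urinary protein gene of the same list, was highest at the periportal end in each library, at 476, 501 and 546 CPM for SD, 484, 522 and 719 CPM for MASLD and 398, 469 and 544 CPM for Aza-TdC. Of the 5 listed genes, Hamp, Hamp2, Igfbp2, Cyp8b1 and Mup3, 1 stood above both ends by at least 0.5 in log2 in SD, which was Igfbp2, 0 in MASLD and 0 in Aza-TdC.

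**Figure D2:**
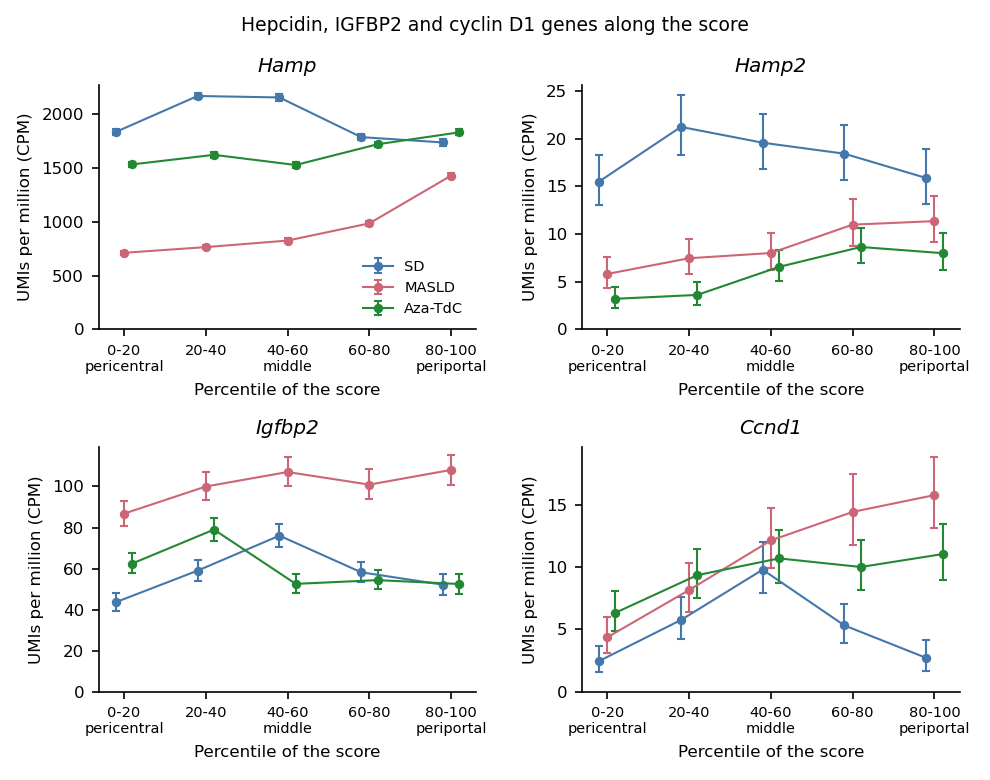
Levels of Hamp, Hamp2, Igfbp2 and Ccnd1 in CPM along 5 windows of the score, by library, with exact 95% Poisson intervals that cover counting error only. In SD, Igfbp2 and Ccnd1 peak in the middle window (76.04 and 9.78 CPM), while Hamp and Ccnd1 of MASLD are highest at the periportal end.

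A position difference shared by the libraries was tested over 9 sums of UMIs (pericentral end, middle and periportal end of 3 libraries) with edgeR's quasi-likelihood test and library as a block, at a Benjamini-Hochberg adjusted p of at most 0.05 over 13366 genes. In edgeR, 0 genes passed above both ends (0%) and 0 below both ends (0%). At an unadjusted p under 0.05 against both ends, 161 genes were higher and 36 lower. DESeq2 called 21 genes higher than both ends (0.157%), among them the leukocyte genes Ptprc, Dock2, Dock10, Syk and Inpp5d and the antigen presentation genes H2-Aa and H2-Ab1. In the redrawn windows DESeq2 called 1, Saa2. With Aza-TdC left out, edgeR called 100 (0.74%), of which 20 were among the 21 of DESeq2, and in the redrawn windows without Aza-TdC it called 0. The fitted log2 difference of Hamp was 0.10 ± 0.19 (SE) from the pericentral end, with an edgeR adjusted p of 0.82, and -0.29 ± 0.19 (SE) from the periportal end, with an edgeR adjusted p of 0.59.

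The middle window was set off from the pericentral end. Against it, edgeR called 482 genes higher (3.61%) and 492 lower (3.68%) in the middle. Against the periportal end edgeR called 0 higher (0%) and 0 lower (0%), and DESeq2 called 66 and 18. Without the SD library the edgeR counts against the pericentral end were 5 and 2, without Aza-TdC 242 and 142, and in the redrawn windows 307 and 286. They were 1128 and 1171 at the score values of SD in every library.

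Many pericentral genes outside the score were lower in the middle than at the pericentral end. Of 39 listed, 38 were tested, 25 were lower and 0 higher, with a median log2 difference of -1.52 beside 0.00 over all genes tested. Glul, the glutamine synthetase of the cells next to the central vein, was at 322 and 59.4 CPM at the pericentral end and in the middle of SD, 540.3 and 130.0 CPM in MASLD, and 395 and 32.5 CPM in Aza-TdC. Its fitted difference was -2.73 ± 0.30 (SE), with an edgeR adjusted p of 0.0065. Lgr5, the R-spondin receptor gene, was at 179 and 13.6, 99.9 and 21.2, and 108 and 2.22 CPM in the same order. Slc1a2, a glutamate transporter gene, differed by -4.07 ± 0.48 (SE), with an edgeR adjusted p of 0.007. Against the periportal end the median of the list was 0.90, and 0 of 38 passed.

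Wnt feedback genes were among these. In the Wnt and beta-catenin list 8 of 21 were lower in the middle and 1 was higher. Axin2, a feedback inhibitor of the pathway, was at 22.9 and 5.85 CPM at the pericentral end and in the middle of SD, 16.9 and 6.95 CPM in MASLD, and 11.6 and 0.706 CPM in Aza-TdC, a fitted difference of -2.10 ± 0.33 (SE) with an edgeR adjusted p of 0.011. The receptor ligase genes Rnf43 and Znrf3 stood at -1.37 ± 0.23 (SE) and -0.41 ± 0.07 (SE), with edgeR adjusted p of 0.013 and 0.016.

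Of 25 bile acid genes, 8 were lower in the middle than at the pericentral end and 0 higher. Slco1b2, an organic anion uptake transporter gene, had a fitted log2 difference of -0.97 ± 0.16 (SE) and an edgeR adjusted p of 0.012. Cyp27a1, the sterol 27-hydroxylase gene, had -0.93 ± 0.18 (SE), with an edgeR adjusted p of 0.02. Cyp8b1 had -0.63 ± 0.15 (SE), with an edgeR adjusted p of 0.038, and missed the threshold under 9 alternatives, among them the redrawn windows, the score without Cyp2e1 (-0.40) and leaving out SD (-0.66) or Aza-TdC (-0.33). Of 16 major urinary protein genes tested, 8 were lower and 0 higher, with a median of -1.03. These genes are near-identical copies and their separate counts are uncertain.

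Periportal genes outside the score were higher in the middle than at the pericentral end for 15 of 31 and lower for 0, with a median log2 difference of 0.77. Gldc, the decarboxylase of the glycine cleavage system, was at 18.6 and 107 CPM at the pericentral end and in the middle of SD, 13.6 and 62.4 CPM in MASLD, and 20.03 and 384 CPM in Aza-TdC. Its fitted difference was 3.06 ± 0.42 (SE), with an edgeR adjusted p of 0.0087. Hsd17b13, a lipid droplet enzyme gene, was at 46.2 and 219, 111 and 358, and 72.6 and 771 CPM in the same order. Spp1, a gene of bile duct cells and macrophages, also passed at 3.83 ± 0.55 (SE) with an edgeR adjusted p of 0.0094, and 5 nuclei held 83.3% of its UMIs in the middle of MASLD. Against the periportal end the median of the periportal list was -0.45, and 0 of 31 passed.

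Lipid synthesis genes were higher in the middle than at the pericentral end for 5 of 24 and lower for 0, with a median of 0.30. Acly, which makes cytosolic acetyl-CoA, was at 154 and 386 CPM at the pericentral end and in the middle of SD, 30.6 and 56.4 CPM in MASLD, and 26.7 and 123 CPM in Aza-TdC. Elovl5, a fatty acid elongase gene, differed by 0.68 ± 0.15 (SE), with an edgeR adjusted p of 0.034. In the hepcidin and iron list 3 of 31 were higher and 0 lower. These were Hpx, the heme-binding hemopexin gene, Slc39a14, a zinc and iron importer gene, and Hp, the haptoglobin gene. Hpx differed by 0.57 ± 0.08 (SE), with an edgeR adjusted p of 0.0088. Of 30 urea cycle and amino acid genes 4 were higher and 3 lower, among the higher Uroc1 and Amdhd1 of histidine breakdown.

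In the IGFBP2, mTOR and cyclin D1 list, 1 of 22 was higher in the middle than at the pericentral end and 1 lower, a share near the 3.61% and 3.68% of all genes. Igf1, the gene of the circulating growth factor of the liver, was the higher one, with 0.82 ± 0.20 (SE) and an edgeR adjusted p of 0.047. Cdk6, a cyclin D partner kinase gene, was the lower one, with -0.98 ± 0.25 (SE) and an edgeR adjusted p of 0.047. Of 20 cell cycle genes, 3 were higher and 0 lower. These were Top2a, Prc1 and Anln, which act in chromosome separation and cell division. Members under 3 score UMIs held 80.3% of the Top2a UMIs in the middle of MASLD.

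**Figure D3:**
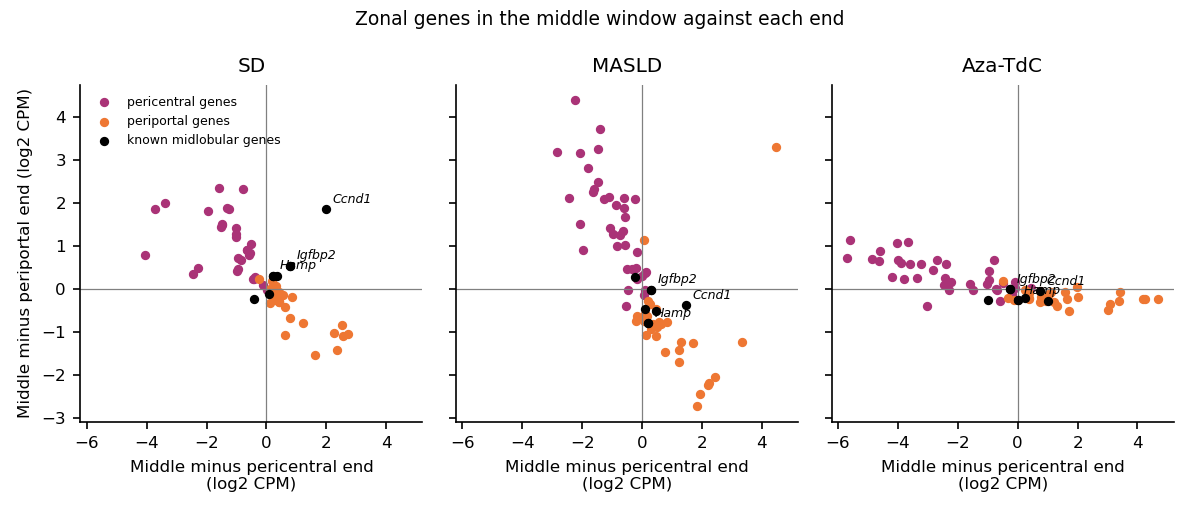
Log2 CPM of the middle window minus the pericentral end (x axis) and minus the periportal end (y axis) for listed genes with at least 50 UMIs, 1 panel per library; black points are known midlobular genes and Ccnd1. Pericentral genes lie at upper left and periportal genes at lower right, and in SD Igfbp2 (0.80, 0.55) and Ccnd1 (1.99, 1.85) lie at upper right; the lone periportal point at upper right in MASLD is Spp1.

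Genes standing out from both ends were then listed within each library, as a difference of at least 0.5 in log2 with an interval excluding 0 and at least 50 UMIs; 1 library allows no test. Among all members, 61 genes of SD were higher than both ends (0.518%), as were 286 of MASLD (2.34%) and 46 of Aza-TdC (0.379%). In the redrawn windows the numbers were 17 (0.145%), 54 (0.45%) and 40 (0.33%). The SD score values gave 96 in MASLD (0.768%) and 45 in Aza-TdC (0.366%). The periportal ends held only 149 and 565 nuclei at those values, so these counts are not directly comparable with those by percentile. Lower than both ends were 12 (0.102%), 41 (0.335%) and 21 (0.173%), in the redrawn windows 17 (0.145%), 32 (0.266%) and 17 (0.14%), and at the score values of SD 12 in MASLD (0.0961%) and 13 in Aza-TdC (0.106%). The leading genes among all members were partly of other cells. Dock2 and Dock10, regulators of leukocyte movement, had 75.5% and 87.9% of their SD UMIs in members under 3 score UMIs, and Dock10 had 91.7% of its MASLD UMIs there.

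In the redrawn windows, the genes standing highest above both ends in SD were Saa2, Saa1, Ccnd1, Srgap3 and Slc17a8. Saa1 and Saa2 encode the acute-phase serum amyloid A proteins, and 5 nuclei held 93.8% and 96.00% of their UMIs in the original middle window. Slc17a8, a vesicular glutamate transporter gene (chr10:89574020-89621253, minus strand), was broader, at 62.3, 98.4 and 66.6 CPM at the pericentral end, in the middle and at the periportal end, with UMIs in 503 members of the original middle window. Srgap3 (chr6:112717971-112947266, minus strand) was at 17.4, 28.9 and 16.00 CPM. Lowest against both ends were Ctcflos, Champ1, Nr0b2, Lyrm1 and Tpmt. Nr0b2, which encodes SHP, a repressor of bile acid synthesis, was at 49.1, 37.98 and 52.1 CPM.

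In MASLD the genes named by the same rule included C7, Gsn, Bicc1 and Spp1 as highest. Gsn, which encodes the actin-severing protein gelsolin, had 89.7% of its UMIs in the original middle window in 5 nuclei. Lowest were Hpd, Adh7, Gnmt, Malat1 and Ptrhd1. Gnmt, the glycine N-methyltransferase that uses up S-adenosylmethionine, was at 839, 696 and 1156 CPM at the pericentral end, in the middle and at the periportal end. Hpd, of tyrosine breakdown, was at 1108, 811 and 1009 CPM.

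In Aza-TdC the highest were Saa2, Pdk4, Calcrl, G6pdx and Rbfox1. Pdk4, the kinase that shuts pyruvate dehydrogenase, was at 19.1, 38.5 and 17.5 CPM at the pericentral end, in the middle and at the periportal end, with UMIs in 187 members of the original middle window. G6pdx, of the pentose phosphate pathway, was at 2.59, 7.06 and 3.21 CPM. Lowest were Ppp1r3c, Bhmt, Sardhos, Hpd and Adam2. Ppp1r3c, a glycogen-targeting subunit of protein phosphatase, was at 33.2, 20.3 and 32.4 CPM, and Bhmt, which remethylates homocysteine, at 644, 365 and 451 CPM. Saa2 led in both SD and Aza-TdC, though in SD a few nuclei held most of its UMIs in the original middle window. Hpd was among the lowest in both MASLD and Aza-TdC. Differences between the libraries were not tested.

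MASLD was then set beside SD in the middle window and at each end. With 1 library per group there was no test; values are log2 ratios of CPM with 95% intervals for counting error, and a gene was counted at a ratio of at least 1 or at most -1 with an interval excluding 0. In the middle window 1352 genes were higher in MASLD (11.6%) and 429 lower (3.7%) of 11610. At the pericentral end 1034 were higher (9.07%) and 384 lower (3.37%), and at the periportal end 1000 (8.96%) and 345 (3.09%). The middle counts were 1232 higher and 391 lower at the score values of SD. The median over all genes was 0.15, and 0.03 after scaling by the median ratio. RNA quality moved with these values, since 9 of 16 genes of a list on RNA quality and nuclear purity were higher and 0 lower, with mt-Cytb going from 95.7 to 312 CPM. Markers of other cell types moved as well, with the erythroid list at 40.7 CPM for SD and 405 CPM for MASLD, the T and NK list at 6.91 and 76.8 CPM, and the Kupffer and macrophage list at 6.59 and 39.6 CPM. The T and NK list also fell along the score within both libraries. From the pericentral end through the middle to the periportal end, 31.5%, 21.6% and 2.07% of MASLD nuclei had a UMI of it. The SD shares were 8.77%, 3.17% and 1.17%. Of its 652 UMIs in the middle of MASLD, 553 lay in members with at least 3 score UMIs. The part of these in the results was not tested. These sums over nuclei do not separate fewer nuclei with a transcript from less of it per nucleus.

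Lipid storage genes were higher in MASLD. Of 25 measured genes of the lipid droplet and uptake list, 16 were higher and 0 lower in the middle, with a median of 1.79, beside 17 of 25 higher at the pericentral end and 12 of 21 at the periportal end. Cd36, the fatty acid receptor gene, went from 3.83 to 385 CPM in the middle, a ratio of 6.65 (6.18 to 7.17), with 3.82 at the pericentral and 5.85 at the periportal end. Cidec, which fuses lipid droplets, went from 11.8 to 239 CPM, a ratio of 4.34 (4.07 to 4.63). Plin4, a droplet coat gene, went from 38.3 to 366 CPM, a ratio of 3.26 (3.10 to 3.42), with 1.75 at the pericentral and 1.32 at the periportal end. The middle ratio of Plin4 at the score values of SD was 1.53.

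Fatty acid oxidation genes under PPARA were higher for 14 of 30 and lower for 0, with a median of 0.78. Pdk4 went from 2.45 to 62.1 CPM, a ratio of 4.67 (4.06 to 5.34). Cyp4a14, a fatty acid omega-hydroxylase gene, went from 93.4 to 1029 CPM, a ratio of 3.46 (3.36 to 3.56). Fgf21, a fasting hormone gene, went from 2.77 to 62.3 CPM, a ratio of 4.49 (3.93 to 5.12). Lipid synthesis genes split, with 8 of 23 higher and 5 lower. Scd1, the stearoyl-CoA desaturase gene, went from 85.1 to 942 CPM, while Acly went from 386 to 56.4 CPM, the fatty acid synthase gene Fasn from 147 to 64.6 CPM and the elongase gene Elovl6 from 1000.0 to 151 CPM.

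Some amino acid and glucose genes were lower in MASLD. Of 30 urea cycle and amino acid genes, 12 were lower and 0 higher, with a median of -0.92, beside 11 lower at the pericentral end and 4 at the periportal end. Ass1, of the urea cycle, went from 1579.7 to 290.0 CPM, a ratio of -2.45 (-2.51 to -2.38). Got1, the cytosolic aspartate aminotransferase gene, went from 632 to 89.5 CPM, a ratio of -2.82 (-2.93 to -2.71). Of 23 gluconeogenesis, glycolysis and glycogen genes, 8 were lower and 1 higher. Pygl, the liver glycogen phosphorylase gene, went from 663 to 145 CPM, a ratio of -2.19 (-2.28 to -2.10). At the score values of SD, 11 of 30 genes of the first list and 5 of 23 of the second were lower. Among all genes 391 were lower at those values.

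Hamp was lower in MASLD than in SD, at -1.38 (-1.42 to -1.35) in the middle, -1.37 (-1.41 to -1.32) at the pericentral end and -0.28 (-0.32 to -0.25) at the periportal end. The middle ratio was -1.04 at the score values of SD. Hamp2 stood at -1.29 (-1.71 to -0.88) in the middle. Smad7, a feedback inhibitor of BMP and TGF-beta signals, went from 72.95 to 34.97 CPM, a ratio of -1.06 (-1.26 to -0.86). The iron storage gene Fth1 was higher, going from 95.7 to 309 CPM. In all, 5 of 30 genes of the hepcidin and iron list were higher and 3 lower, beside 11.6% and 3.7% of all genes. The median of the list was 0.18, near the 0.15 of all genes. Igfbp2 stood at 0.49 (0.35 to 0.64) and Ccnd1 at 0.31 (-0.11 to 0.73) in the middle, the latter an interval that includes 0.

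The largest ratios by their interval also included genes absent or nearly absent from SD. Fut2, a fucosyltransferase gene, had 0 and 222 UMIs in SD and MASLD, at least 81.9-fold higher against a floor of 3 UMIs in the SD middle window. Cyp2a4, a steroid hydroxylase gene with a female bias in mouse liver, had 0 and 175 UMIs, at least 64.6-fold higher. Apoa4, an apolipoprotein gene, went from 11.6 to 452 CPM. Lyz2, a lysozyme gene of macrophages, went from 0.213 to 23.8 CPM, with 58.9% of its MASLD UMIs in members under 3 score UMIs. Lowest were genes such as Nnmt, nicotinamide N-methyltransferase, from 196 to 6.48 CPM, Hsd3b5, a male-biased steroid dehydrogenase gene, from 22.3 to 0.706 CPM, and Serpina1e, a protease inhibitor gene, from 173 to 10.7 CPM.

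Ratios of zonal genes depended on how the window was set. Of 35 pericentral genes measured in the middle, 10 were higher in MASLD than in SD and 3 lower, with a median of 0.49. At the score values of SD, 5 of 33 were higher and 15 lower, with a median of -0.81, beside 1232 and 391 among all genes. Of 29 periportal genes, 5 were higher and 15 lower with a median of -1.16, and at the score values of SD the median was -0.38. Tox, a nuclear HMG-box factor gene, turned in the same way, with a middle ratio of 1.65 (1.61 to 1.70) by percentile and -1.22 at the score values of SD. Cyp2c38, a P450 gene, had 2.58 (2.47 to 2.68) and -0.98.

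**Figure D4:**
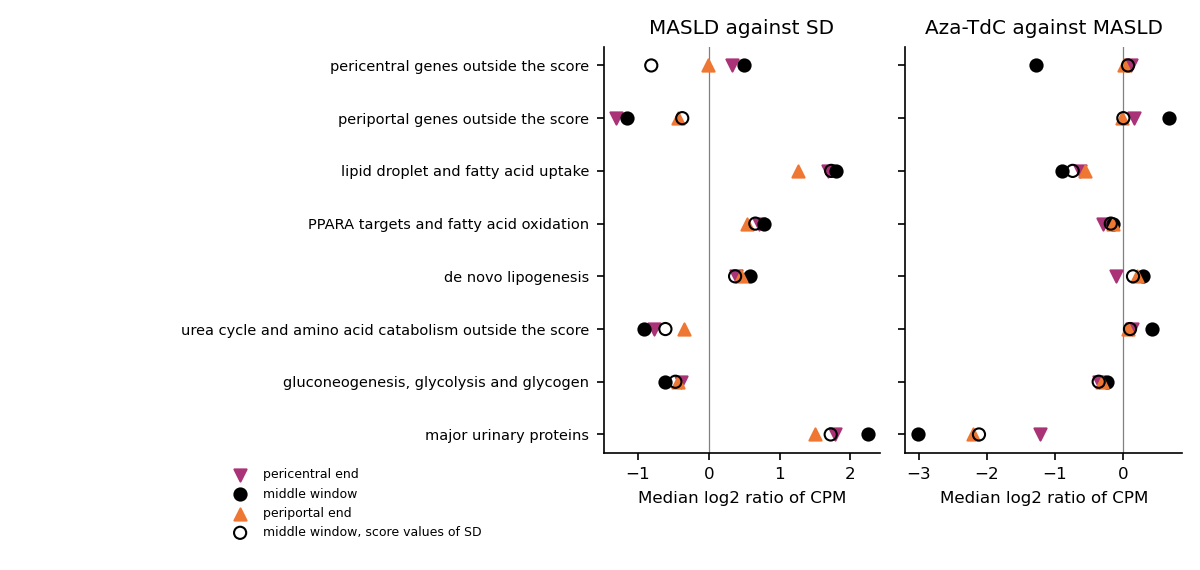
Median log2 ratio of CPM over the measured members of gene lists in MASLD against SD and Aza-TdC against MASLD, at each end, in the middle window and in the middle at the score values of SD. For pericentral genes the middle values by percentile and by score lie apart, at 0.49 and -0.81 in the first comparison and -1.28 and 0.07 in the second.

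Aza-TdC was compared with the same MASLD library, so these comparisons share it. In the middle window 259 of 11712 genes were higher in Aza-TdC (2.21%) and 703 lower (6%). At the pericentral end 157 were higher (1.36%) and 463 lower (4.02%), and at the periportal end 170 (1.5%) and 323 (2.85%). The middle counts were 166 and 450 at the score values of SD. The RNA quality list moved here too, with 11 of 16 lower and 0 higher, and mt-Cytb going from 312 to 68.2 CPM. The erythroid list stood at 58.8 CPM in the middle of Aza-TdC. The T and NK list was at 23.7, 2.62 and 1.80 CPM at the pericentral end, in the middle and at the periportal end there. The part of these in the results was not tested.

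Pericentral genes were lower in the middle of Aza-TdC where the window was set by percentile. In the middle 22 of 35 were lower and 0 higher, with a median of -1.28, beside 3 higher and 3 lower of 37 at the pericentral end. At the score values of SD the middle had 4 higher and 4 lower of 33, with a median of 0.07. Lgr5 went from 21.2 to 2.22 CPM, a ratio of -3.26 (-3.97 to -2.61), and was at 0.85 at the score values of SD. Cyp7a1, which encodes the first enzyme of classic bile acid synthesis, went from 199 to 41.4 CPM, a ratio of -2.26 (-2.42 to -2.11), and was at 0.06 at those values and 0.88 at the pericentral end. Esrrg, an orphan nuclear receptor gene, had -3.11 (-3.26 to -2.96) and 0.13.

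Some periportal genes ran the other way, with 9 of 30 higher and 1 lower in the middle at a median of 0.68, and 1 higher and 2 lower of 30 at a median of 0.01 at the score values of SD. Gldc went from 62.4 to 384 CPM, a ratio of 2.62 (2.49 to 2.75), and was at 0.73 at the score values of SD. Pnpla3, a lipid droplet lipase gene, went from 21.8 to 184 CPM, a ratio of 3.08 (2.86 to 3.30), and was at 1.40. Ahr, the aryl hydrocarbon receptor gene, had -1.58 (-1.75 to -1.42) by percentile and 0.31 by score.

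Some lipid storage genes were lower in Aza-TdC by either window. Of 26 measured, 12 were lower and 2 higher with a median of -0.90, and at the score values of SD 8 of 25 were lower and 1 higher with a median of -0.74. Cidea, a droplet protein gene, had 330 and 0 UMIs in MASLD and Aza-TdC, at least 128-fold lower against a floor of 3 UMIs. Cidec went from 239 to 56.7 CPM, a ratio of -2.08 (-2.22 to -1.94), and was at -1.53 at the score values of SD. Fabp1, the liver fatty acid binding protein gene, went from 2612 to 998 CPM, a ratio of -1.39 (-1.42 to -1.35), and was at -1.52. Of 30 PPARA target genes 2 were lower and 0 higher, near the 6% of all genes that were lower.

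Major urinary protein genes were lower for 8 of 10 measured and higher for 0, with a median of -3.01, and at the score values of SD the median was -2.11. Mup20, which encodes the male pheromone darcin, went from 1258 to 497 CPM, a ratio of -1.34 (-1.39 to -1.29). Cux2, a female-biased transcription factor gene in mouse liver, went from 0.118 to 64.1 CPM with 1 and 636 UMIs, a ratio of 9.09 (6.61 to 14.39), and was found in 440 members of Aza-TdC. The metallothionein genes Mt1 and Mt2, whose products bind zinc, went from 45.6 to 337 CPM and from 9.07 to 144 CPM. At the score values of SD, Mt1 was at 2.08 and Mt2 at 3.03.

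Hamp was higher in Aza-TdC than in MASLD, at 0.89 (0.85 to 0.93) in the middle, 1.11 (1.06 to 1.15) at the pericentral end and 0.36 (0.32 to 0.39) at the periportal end. Hamp2 stood at -0.29 (-0.80 to 0.22) in the middle, an interval that includes 0. Igfbp2 was lower, at -1.03 (-1.18 to -0.87) in the middle and -0.88 at the score values of SD. Ccnd1 stood at -0.18 (-0.59 to 0.22), an interval that includes 0. The antigen presentation genes H2-Aa and Cd74 were among the lowest, at -5.23 (-6.20 to -4.41) and -4.46 (-4.91 to -4.04), with 89.1% and 86.2% of their MASLD UMIs in members under 3 score UMIs. In the redrawn windows they were at -2.15 and -1.73.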

How the data were processed

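Nuclei from 120 mg of frozen liver were sorted and sequenced with 10x Genomics 3′ v3.1 chemistry, per the labels' protocols. The deposited files hold raw counts of UMIs, which came from Cell Ranger 6.1.2 per the file headers. The submitters' processing notes name Seurat 4.4.0, mm10 and GRCm38. Doublets and free RNA were not removed here. Libraries were grouped by their labels.

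Counts were added up across nuclei of each library and window and divided by all UMIs of the 32285 features (CPM). Position was tested with edgeR 4.0.16 (R 4.3.3; TMM, filterByExpr, quasi-likelihood) on 9 sums with library as a block, so the error is the spread between libraries of different conditions; replicate animals are not resolved. The 7 score genes entered totals only. Ratios carry exact conditional binomial and levels exact Poisson 95% intervals. A gene needed 50 UMIs over the compared sums. The members and the 23 gene lists were chosen with earlier results of these data known. Genes named within a library were the 5 farthest above or below both ends; for the diet comparisons they were the 10 extremes each way by the interval bound nearest 0, the 5 each way farthest from the nearer end, and up to 4 per list, of which a part is printed; 1 gene named within a library is not reported here. Gene positions come from GENCODE vM21 (GRCm38) and sequences from RefSeq (GRCm38.p6), aligned with Biopython 1.88. The last 3 bases of the Hamp window, which GENCODE counts as exon, were left out. Alternatives were other windows and scores, thinning each nucleus to the smallest UMI number allowed, other filters, DESeq2 1.42.0 and leaving out each library; the limit of 3 score UMIs, with windows redrawn, was chosen after seeing the data.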

Additional observations from a re-analysis of the deposited data

Results flagged for a closer look

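Within-library differences of the middle window had opposite signs in 2 libraries for 3 of the genes followed along the score, with intervals that exclude 0 on both sides; the difference between libraries was not tested. Hamp lay 0.31 above the periportal end in SD and -0.79 and -0.26 against it in MASLD and Aza-TdC. Igfbp2 lay 0.80 above the pericentral end in SD and 0.30 above it in MASLD, and -0.25 against it in Aza-TdC. Cyp8b1 lay 0.28 above the periportal end in MASLD and -0.24 against it in Aza-TdC.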

How the results depend on the processing

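Where 0 genes stood above both ends in edgeR, thinning to equal depth gave 28, DESeq2 21, no filter on low counts 106, and leaving out 1 library 0 to 100. With at least 3 score UMIs and windows redrawn, an alternative chosen after seeing the data, DESeq2 gave 1. Genes lying between the ends numbered 0, and 65, 40, 171 and 0 to 96 under the same 4 alternatives, 20 with DESeq2 and at least 3 score UMIs, and 44 with at least 3 score UMIs and no Aza-TdC library. Above the periportal end the numbers were 0, then 98, 66, 276, 0 to 238, 25 and 81 in that order. Below it they were 0, then 29, 18, 88, 0 to 69, 6 and 38. Above the pericentral end 482 genes became 316 with the 45th to 55th percentile, 254 thinned, 308 without Cyp2e1 in the score, 1128 at the score values of SD, 307 with at least 3 score UMIs, 788 unfiltered, 0 without the library block, 5 to 338 with 1 library left out, 309 with DESeq2 and at least 3 score UMIs, and 45 with at least 3 score UMIs and no Aza-TdC library. Below it 492 became 274, 284 thinned, 1171 at the score values of SD, 286 with at least 3 score UMIs, 809 unfiltered, 1 without the block, 2 to 425 with 1 library left out and 56 with at least 3 score UMIs and no Aza-TdC library. The position fit compared sums of the same library through the library block. The diet and treatment comparisons allowed no pairing because each group has 1 library.

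In Aza-TdC against MASLD, 259 higher genes became 166 at the score values of SD. The 703 lower ones became 1125 with at least 20 UMIs, 464 with at least 100 UMIs, 457 with the 45th to 55th percentile, 436 thinned and 450 at the score values of SD. These fitted differences changed sign. With 1 library left out, Hamp against the periportal end ran from -0.55 to 0.020 (without MASLD) and Hamp2 from -0.41 to 0.055 (without MASLD), and Hamp2 was 0.14 at the score values of SD. Igfbp2 ran from -0.032 (without SD) to 0.50 against the pericentral and from -0.020 (without SD) to 0.29 against the periportal end. Cyp8b1 against the periportal end was 0.18 with the axis cut in 3, 0.17 thinned, 0.026 without Cyp2e1, 0.014 without the block, -0.24 to 0.13 with 1 library left out (0.03 without SD and 0.13 without Aza-TdC), and 0.12 with at least 3 score UMIs and no Aza-TdC library. The causes were not tested. With 1 library per group no interval covers animals.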
